A study of Mus musculus with 12 samples.

Results

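Potassium channel genes were followed in hearts of mice after myocardial infarction, with and without agrin. The members are the genes of the processed table whose symbol starts with Kcn, 76 in all, and 65 of them averaged 5 normalized counts or more across all 12 libraries, as did 14906 of the 16218 genes listed. The symbols cover pore-forming subunits, auxiliary subunits that bind them, the non-coding antisense transcript Kcnq1ot1 of the Kcnq1 locus and Kcnrg, a regulator that forms no channel. The rule uses the name and the overall level, and no difference between groups.

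All samples were hearts of female mice, 12 weeks old by the labels and wild type by their source names. The 4 sham animals were operated on without infarction. The 4 MI+PBS animals had the left anterior descending coronary artery tied off permanently and were treated with phosphate-buffered saline, the vehicle. The 4 MI+Agrin animals had the same ligation and were treated with agrin, an extracellular matrix proteoglycan. Its dose, route and timing were not found in the labels. RNA was taken 2 weeks after infarction, and the labels do not say which region of the heart it came from. A further group named in the series' design text was not analysed here.

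Potassium channels let potassium ions leave the cell and so set the resting membrane potential and end the action potential. In cardiomyocytes, voltage-gated channels of the Kcna, Kcnb, Kcnd, Kcnh and Kcnq subfamilies carry the transient outward and delayed rectifier currents, and inward rectifiers of the Kcnj subfamily hold the resting potential or respond to ATP and to G proteins. Pores with a pair of pore domains (Kcnk) carry leak currents, calcium-activated pores (Kcnn, Kcnma) link potassium efflux to calcium, and small partners (Kcne, Kcnip, Kcnab) change how the pores open and reach the membrane. Lower potassium currents and longer action potentials are a well-known feature of diseased ventricles.

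The depth recovered for 11 libraries ran from 20238512 to 22742027 reads in genes, and sham replicate 2 summed to 21695925 normalized counts. Each library detected 15799 to 15898 genes. On the first principal component (40.8% of the variance) MI+PBS replicate 2 lay at 45.16, while its group mates lay at 21.14 to 24.9, and on the second (11.9%) MI+Agrin replicate 1 stood apart at -40.17. The tissue label was checked on 12 cardiomyocyte markers, all of which were measured, with a summed level of 1879170 to 2202380 normalized counts in sham, 1208010 to 1706850 in MI+PBS and 1612020 to 1816320 in MI+Agrin. Markers of 9 macrophage genes summed to 21412 to 26736 in sham, 41440 to 49060 in MI+PBS and 31429 to 46748 in MI+Agrin. In such bulk samples, fewer cells of a type and less RNA per cell cannot be told apart.

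The 5 members that differed between the infarcted groups were Kcnj8, Kcnj2, Kcna5, Kcne4 and Kcnk6. Their promoters, from 250 bases before to 50 bases after the start in RefSeq (GRCm38.p6), are shown because these genes, 2 higher and 3 lower with agrin, carry that comparison. Of the 5, 4 had an entry, and Kcnk6 is named only. Kcna5 lies at chr6:126535506-126535805 on the minus strand, Kcne4 at chr1:78816661-78816960 on the plus strand, Kcnj2 at chr11:111065914-111066213 on the plus strand and Kcnj8 at chr6:142571565-142571864 on the minus strand. Each is written 5′ to 3′ in lower case, and capitals mark any match, on either strand, to 6 motifs: the TATA box TATAAA, the GC box GGGCGG, the E-box CACGTG, the AP-1 site TGANTCA, the TEAD site GGAATG and the GATA site AGATAA.
Kcna5: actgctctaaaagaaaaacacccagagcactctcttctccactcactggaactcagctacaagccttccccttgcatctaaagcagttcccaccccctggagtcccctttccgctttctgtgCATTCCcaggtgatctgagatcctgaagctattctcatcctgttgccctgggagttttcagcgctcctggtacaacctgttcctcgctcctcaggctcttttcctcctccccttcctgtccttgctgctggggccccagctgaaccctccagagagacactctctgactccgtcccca
Kcne4: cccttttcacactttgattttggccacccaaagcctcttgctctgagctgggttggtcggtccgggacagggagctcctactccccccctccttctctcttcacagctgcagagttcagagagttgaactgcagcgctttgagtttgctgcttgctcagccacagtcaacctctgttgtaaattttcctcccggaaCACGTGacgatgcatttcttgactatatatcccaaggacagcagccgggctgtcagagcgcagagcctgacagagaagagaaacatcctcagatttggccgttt
Kcnj2: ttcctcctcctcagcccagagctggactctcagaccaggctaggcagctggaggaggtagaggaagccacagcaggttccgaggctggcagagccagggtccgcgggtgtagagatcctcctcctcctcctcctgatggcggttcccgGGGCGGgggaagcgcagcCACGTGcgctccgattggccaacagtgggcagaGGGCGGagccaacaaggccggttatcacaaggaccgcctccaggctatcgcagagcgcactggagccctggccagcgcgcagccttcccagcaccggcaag
Kcnj8: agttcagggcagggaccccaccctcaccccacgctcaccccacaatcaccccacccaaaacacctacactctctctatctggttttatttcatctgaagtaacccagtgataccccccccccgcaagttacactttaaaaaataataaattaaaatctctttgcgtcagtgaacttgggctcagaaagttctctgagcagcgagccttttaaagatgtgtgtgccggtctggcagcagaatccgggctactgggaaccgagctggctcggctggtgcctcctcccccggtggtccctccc

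The Kcnj2 window held 2 GC boxes and 1 E-box, the Kcne4 window 1 E-box and the Kcna5 window 1 TEAD site, read on the opposite strand, while none of the 6 motifs was found in the Kcnj8 window. Among 32851 promoters of the same length, 35.7% held the GC box, 7.15% the E-box and 14.7% the TEAD site. The TATA box was in 13.6%, the AP-1 site in 7.81% and the GATA site in 11.2% of them. Of the 65 members, 48 had an entry, with 68 promoters in all, of which 45.6% held the GC box, 8.82% the E-box and 11.8% the TEAD site. The share of G and C was 66.7% in the Kcnj2 window, 55.0% for Kcna5, 53.3% for Kcnj8 and 52.7% for Kcne4, against a median of 52.7% over all promoters and 58.3% over those of members. A match is a description of letters in this window and shows no binding.

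The level of each member in the sham heart shows which potassium channels these samples held. Levels between genes are compared as normalized counts per kb of exon, since longer genes collect more reads. The highest was Kcnk3, an acid-sensitive leak channel, at 2126 ± 255 per kb (SD, n = 4), and Kcnip2, the auxiliary subunit of the transient outward channel, at 1932 ± 275. The ranges of these genes overlapped. Kcnj11, the pore of the ATP-sensitive channel of cardiomyocytes, followed at 1298 ± 119, and Kcnj5, a pore subunit of the acetylcholine-activated channel, at 935 ± 67.4, each apart from its neighbours in the order.

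Kcng2, a silent subunit that modifies Kcnb pores, stood at 753 ± 99.6 per kb and Kcnh2, the pore of the rapid delayed rectifier, at 588 ± 53.5. Kcnj12 (394 ± 41.3) and Kcnj2 (363 ± 27.7), both inward rectifiers of the resting potential, Kcnj8 (349 ± 11.4), an ATP-sensitive pore best known from pericytes and vascular smooth muscle, and Kcnq1 (343 ± 8.91), the pore of the slow delayed rectifier, formed a run in which each overlapped the next. Kcna5, which carries an ultrarapid delayed rectifier, lay at 261 ± 36.7, Kcnj3, the partner of Kcnj5, at 247 ± 28.0 and Kcnd2, a pore of the transient outward current, at 207 ± 8.46. Kcnd3, the other such pore of the ventricle, lay at 71.6 ± 3.83. In the order of all 65 members, the sham ranges of 52 of 64 neighbouring pairs overlapped, 16 members had a mean above 100 per kb and 25 one under 10.

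**Figure D1:**
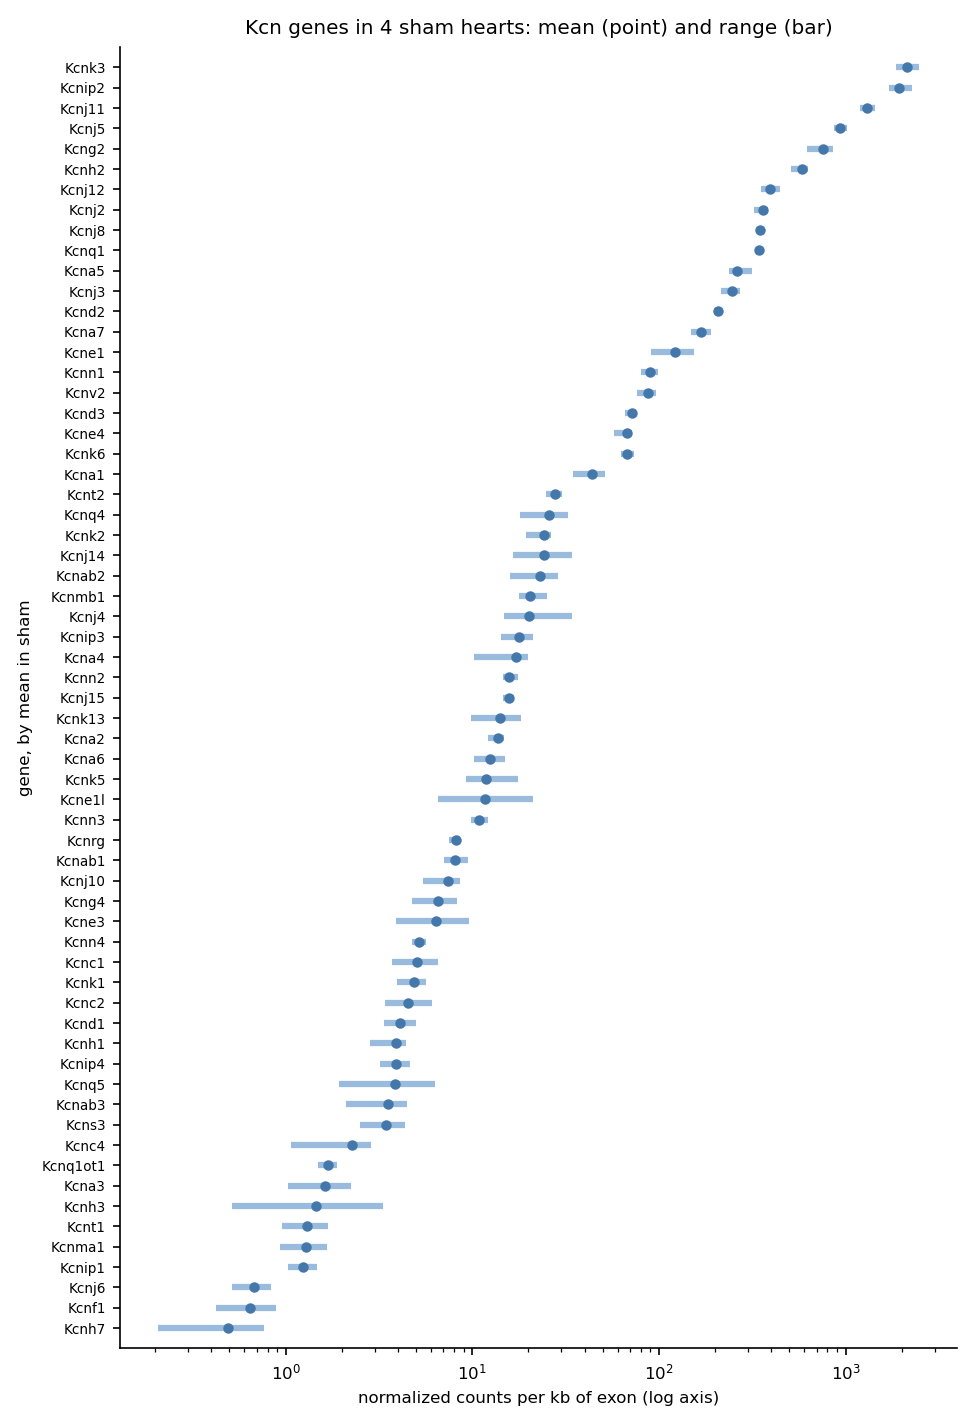
Level of each of 63 of the 65 Kcn genes in sham hearts, as normalized counts per kb of exon on a log axis; points are means of 4 libraries and bars run from the lowest to the highest library. Kcnk3 and Kcnip2 lead at 2126 and 1932 per kb, and 25 genes lie under 10.

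MI+PBS against sham asks how the channel genes stand 2 weeks after infarction without agrin. Of 65 members, 30 passed the test (46.2%), 10 higher and 20 lower, beside 44.4% of all 14906 genes tested, so that the share that passed was near that of all genes. By direction, 30.8% of members were lower and 15.4% higher, against 21.8% lower and 22.6% higher over all genes. The median log2 fold change was -0.34 over the members and -0.01 over all genes. In 29 members (44.6%) the 4 libraries of one group lay above all 4 of the other, against 41.9% of all genes (20.4% with MI+PBS lower and 21.6% with it higher).

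The members lower after infarction included Kcnd2, Kcnh2, Kcnq1, Kcnj2 and Kcnj11, pores of repolarizing and resting currents of the ventricle, and all 10 higher members averaged under 500 normalized counts. Of the 15 members that averaged 500 normalized counts or more, 13 were lower (86.7%) and 0 higher in limma, against 30.2% lower and 24.6% higher among the 6983 genes at that level. The other members of this band, Kcnj12 (-0.32 ± 0.14, adjusted p = 0.08) and Kcna5 (0.15 ± 0.16, adjusted p = 0.485), did not pass. The count of higher members in this band was also 0 in edgeR and in DESeq2, and 0 at an unadjusted p under 0.05 in all 3 tools. Of the 24 members with a mean from 50 to under 500, 20.8% were higher and 20.8% lower (5 each), beside 24.8% and 17.6% of all genes in that band. Of the 26 from 5 to under 50, 19.2% were higher (5) and 7.69% lower (2), beside 12.5% and 7.27% of all genes, so that the shares in both bands were near those of all genes or rest on few members. These bands were chosen after the values were seen and carry no test.

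**Figure D2:**
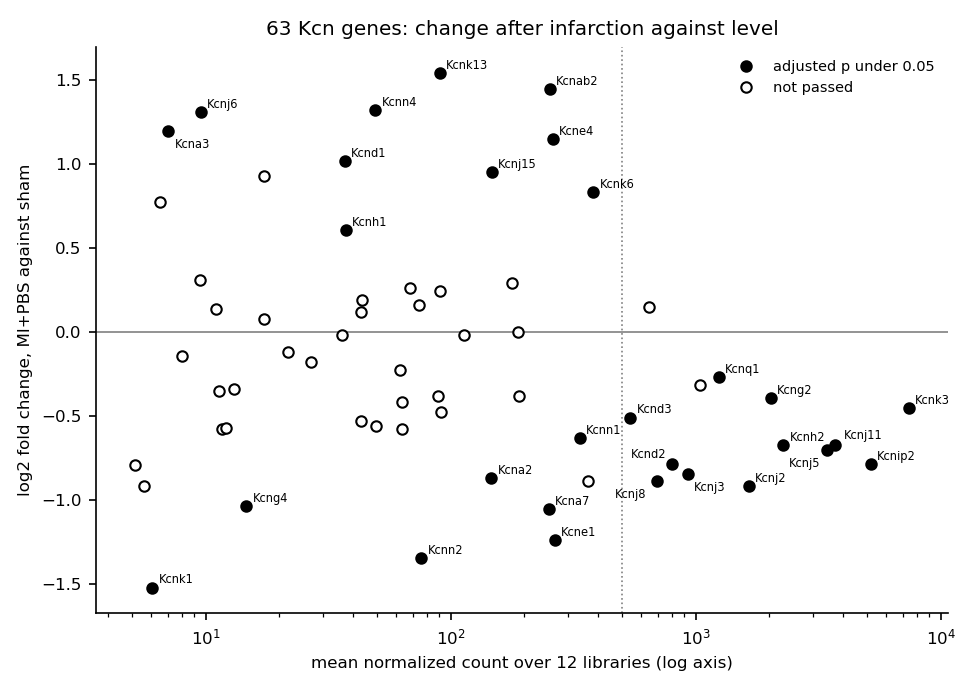
Log2 fold change in MI+PBS against sham (vertical axis) over the mean normalized count of 12 libraries (log axis) for 63 of the 65 Kcn genes; filled points have a limma adjusted p under 0.05 and the dotted line marks 500 counts. To the right of the line 12 of the 14 genes drawn are filled and below 0, and all filled points above 0 lie to its left.

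The ATP-sensitive pores were lower in the infarcted hearts. Kcnj8 (chromosome 6, 142564837 to 142571614 in mm10) had 916, 849, 902 and 892 normalized counts in sham replicates 2 to 5 and 527, 459, 483 and 455 in MI+PBS replicates 1, 2, 3 and 5. Every sham library lay above every MI+PBS library, and the log2 fold change was -0.89 ± 0.07 (SE, adjusted p = 8.45e-06). Kcnj11, whose product pairs with the sulfonylurea receptors, was lower, at -0.67 ± 0.13 (adjusted p = 0.00116). Beside these, the pericyte markers, a list from which Kcnj8 and Abcc9 were left out, summed to 12842 to 13752 in sham and 12997 to 15188 in MI+PBS, with 2 of 8 higher (Cspg4 and Mcam) and 2 lower (Rgs5 and Vtn). The part of pericyte number in the Kcnj8 value was not tested.

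The inward rectifiers of the resting potential differed in how clearly they moved. Kcnj2 (chromosome 11, 111066164 to 111076821) had 2031, 2035, 1752 and 2083 normalized counts in sham and 900, 836, 1534 and 1027 in MI+PBS. The groups did not overlap, although MI+PBS replicate 3 came close to the lowest sham library, and the log2 fold change was -0.92 ± 0.16 (adjusted p = 0.000705). Kcnj12 did not pass with all libraries, as given above, and passed without MI+PBS replicate 1 (-0.43, adjusted p = 0.0191), with only the 8 libraries compared (adjusted p = 0.0479), with the replicate block (adjusted p = 0.0201) and in the same 6 libraries without it (adjusted p = 0.00978).

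The pair of the acetylcholine-activated channel, which slows the atria and nodes under vagal tone, was lower too. Kcnj3 (chromosome 2, 55435970 to 55598145) had 1209, 1401, 1122 and 1420 normalized counts in sham and 702, 742, 753 and 654 in MI+PBS. The groups stood well apart, with a log2 fold change of -0.85 ± 0.11 (adjusted p = 0.000112). Its exons share 31.1% of their bases with Gm26794 on the opposite strand, and the strand setting of the counting is not known here, so that this value is uncertain. Its partner Kcnj5 stood at -0.70 ± 0.16 (adjusted p = 0.00343). Atrial markers, which bear on these genes, summed to 55926 to 109290 in sham and 53706 to 171401 in MI+PBS. Of the 7, 1 was lower (Stard10) and 0 higher in limma, edgeR and DESeq2, also at an unadjusted p under 0.05. By gene, 5 had a log2 fold change below 0 and 2 above it, at a median of -0.55. Their part in the Kcnj3 and Kcnj5 values was not tested.

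For the transient outward channel, the pores Kcnd2 and Kcnd3 and the auxiliary subunit Kcnip2 were lower, while the slowly recovering pore Kcna4 did not pass (-0.42, adjusted p = 0.156). Kcnd2 (chromosome 6, 21215503 to 21729805) had 1122, 1064, 1062 and 1016 normalized counts in sham and 745, 525, 653 and 565 in MI+PBS. The lowest sham library lay well above the highest MI+PBS library, with a log2 fold change of -0.79 ± 0.11 (adjusted p = 0.00014). Kcnd3 (-0.51 ± 0.08, adjusted p = 0.000257) and Kcnip2 (-0.79 ± 0.16, adjusted p = 0.00196) were lower, whereas Kcnd1, the remaining pore of the subfamily, found at 4.09 ± 0.67 counts per kb in sham, rose by 1.01 ± 0.17 (adjusted p = 0.000555). Of the other Kcnip genes, Kcnip1, Kcnip3 and Kcnip4 did not pass, at -0.92 to 0.26 on the log2 scale. Of 12 cardiomyocyte markers, 6 were lower in limma (Tnnt2, Tnni3, Mybpc3, Myl2, Myl3 and Pln) and 6 did not pass. In edgeR 7 were lower and in DESeq2 8, and 0 were higher in all 3 tools, also at an unadjusted p under 0.05. Of the 12, 10 had a log2 fold change below 0 and 2 above it, at a median of -0.43. Their part in the channel values was not tested. Exons of Pln share 64.7% of their bases with Gm47644 on the opposite strand, so that its value is uncertain.

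Several delayed rectifier genes were lower, while the pores Kcna5 (0.15 ± 0.16, adjusted p = 0.485) and Kcna1 (-0.38, adjusted p = 0.204) did not pass. Among the pores that did, the muscle gene Kcna7 fell by 1.05 ± 0.14 in log2 units (adjusted p = 0.000104), Kcna2 by 0.87 ± 0.28 (adjusted p = 0.0239), Kcnh2 by 0.67 ± 0.13 (adjusted p = 0.00149) and Kcnq1 by 0.27 ± 0.09 (adjusted p = 0.0215). Kcne1, the auxiliary subunit of Kcnq1, fell by 1.24 ± 0.44 (adjusted p = 0.0365) with overlapping groups, from 290 to 497 normalized counts in sham and from 60.3 to 317 in MI+PBS. The silent subunits Kcng4 and Kcng2 fell by 1.04 ± 0.29 (adjusted p = 0.0117) and 0.39 ± 0.13 (adjusted p = 0.0221). Kcnv2, another silent subunit, did not pass (-0.89 ± 0.36, adjusted p = 0.0618), nor did Kcna6 (-0.58 ± 0.23, adjusted p = 0.0578), whose exons share 39.6% of their bases with another gene.

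Several of these calls rested on single libraries. Kcne1 no longer passed without sham replicate 3, 4 or 5 or MI+PBS replicate 1 or 3 (adjusted p = 0.0588 to 0.0885), and without MI+PBS replicate 1 its log2 fold change was -0.77. Kcng2 was lost without sham replicate 3 or 4 or MI+PBS replicate 3 (adjusted p = 0.0502 to 0.0704), Kcna2 without sham replicate 3 or 5 (adjusted p = 0.0527 and 0.0548) and Kcnq1 without sham replicate 5 or MI+PBS replicate 3 (adjusted p = 0.0537 and 0.0555). Of the 30 members called, 20 kept their call under every alternative that gave a value, among them Kcnj8, Kcnj2, Kcnj3, Kcnj5, Kcnj11, Kcnd2, Kcnd3, Kcnip2, Kcnh2 and Kcna7.

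Leak and calcium-activated channels moved both ways. Kcnk1, a weakly rectifying leak channel near the filter, fell by 1.52 ± 0.32 in log2 units (adjusted p = 0.00199) from 10.8 ± 1.57 to 3.22 ± 1.25 normalized counts, and Kcnk3 by 0.45 ± 0.12 (adjusted p = 0.00761). Kcnk13, a halothane-inhibited leak channel known from microglia, rose by 1.54 ± 0.24 (adjusted p = 0.000333), from 30.6 to 56.4 normalized counts in sham to 111 to 136 in MI+PBS. Kcnk2, a mechanically gated leak channel, did not pass (-0.48 ± 0.23, adjusted p = 0.108). Among small-conductance calcium-activated pores, Kcnn2 fell by 1.35 ± 0.22 (adjusted p = 0.000425) and Kcnn1 by 0.63 ± 0.10 (adjusted p = 0.000455), whereas Kcnn3 did not pass (-0.02 ± 0.11, adjusted p = 0.901). Kcnn4, the intermediate-conductance pore of immune cells and proliferating fibroblasts, rose by 1.32 ± 0.31 (adjusted p = 0.00401), from 24.3 to 28.8 normalized counts in sham to 44.4 to 137 in MI+PBS.

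The other members that rose were small partners and pores at low levels. Kcnab2, a cytoplasmic subunit of Kcna pores, rose by 1.45 ± 0.19 (adjusted p = 0.000103), from 88.8 to 161 normalized counts in sham to 274 to 428 in MI+PBS. Kcne4, a single-span subunit that inhibits Kcna and Kcnq pores, rose by 1.15 ± 0.13 (adjusted p = 4.31e-05) and Kcnk6, a leak channel related to Kcnk1 and known from macrophages, by 0.83 ± 0.10 (adjusted p = 6.71e-05). Kcnj6 (1.31 ± 0.37, adjusted p = 0.0125), Kcna3, a pore of lymphocytes and macrophages (1.19 ± 0.42, adjusted p = 0.0338), Kcnj15 (0.95 ± 0.21, adjusted p = 0.0026) and Kcnh1 (0.61 ± 0.19, adjusted p = 0.0179) completed them. Kcna3 stood at 3.11 ± 0.94 normalized counts in sham and 9.10 ± 4.90 in MI+PBS, and it was lost without sham replicate 2, 4 or 5 or MI+PBS replicate 1 or 2 (adjusted p = 0.06 to 0.103). Kcnh1 was lost without sham replicate 5 (adjusted p = 0.0549). All 9 macrophage markers measured rose with these genes, at sums of 41440 to 49060 against 21412 to 26736, while 0 of 8 lymphocyte markers tested passed in limma, edgeR or DESeq2, also at an unadjusted p under 0.05, and the part of either cell type was not tested.

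The 35 members that did not pass ran from -0.92 (Kcnip1, adjusted p = 0.129) to 0.93 (Kcne3, adjusted p = 0.108). They included both sodium-activated Kcnt pores, and the large-conductance pore Kcnma1 (-0.12 ± 0.31) with its smooth muscle subunit Kcnmb1 (0.25 ± 0.17). Smooth muscle markers summed to 16156 to 19340 in sham and 22188 to 25790 in MI+PBS. Of these 8 markers, 4 passed and were higher (Acta2, Tagln, Cnn1 and Mylk). The other 4 had a log2 fold change below 0, and the median over the list was 0.07. The part of smooth muscle in the Kcnma1 and Kcnmb1 values was not tested. The antisense transcript Kcnq1ot1 did not pass either (0.29 ± 0.12, adjusted p = 0.074), although all 4 MI+PBS libraries lay above sham.

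**Figure D3:**
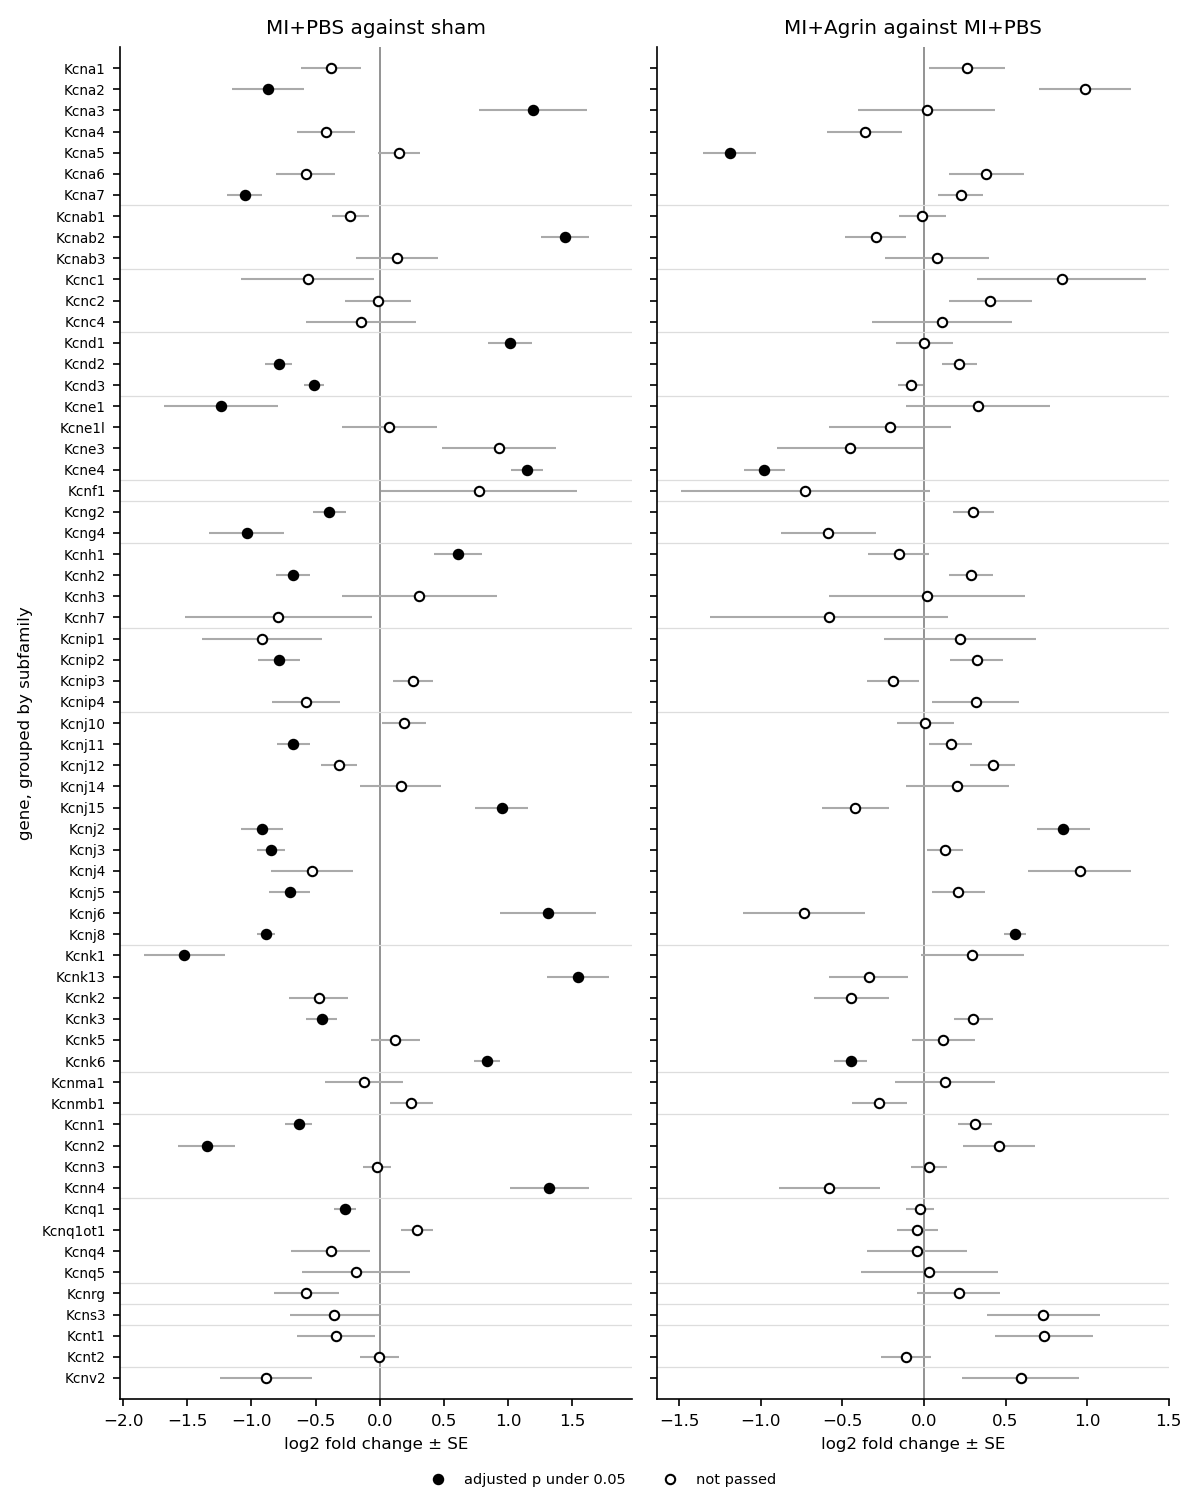
Log2 fold change with its SE (horizontal axis) for each of 63 of the 65 Kcn genes, grouped by subfamily, in MI+PBS against sham (left) and MI+Agrin against MI+PBS (right), 4 libraries per group; filled points have a limma adjusted p under 0.05. On the left 29 points are filled, 19 of them below 0, and on the right 5 are filled.

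MI+Agrin against MI+PBS asks what differed with agrin among infarcted hearts. Of 65 members, 5 passed (7.69%), beside 1.64% of all genes tested, with Kcnj2 and Kcnj8 higher and Kcna5, Kcne4 and Kcnk6 lower, where 0.751% of all genes were higher and 0.892% lower. edgeR called 4 members and DESeq2 6. All 5 calls were lost with the replicate number as a block, a fit of 6 libraries that called 0 genes in all, and 1 of the 5 (Kcna5) passed in the same 6 libraries without the block. The median log2 fold change was 0.11 over the members and near 0 over all genes. In 6 members (9.23%) the groups did not overlap, against 9.04% of all genes (4.12% with MI+Agrin higher and 4.92% with it lower). Of the 15 members that averaged 500 or more, 2 were higher and 1 lower, against 0.974% higher and 1.19% lower among all genes at that level. The members without overlap were the called members other than Kcnj2, whose groups overlapped, together with Kcna2 and Kcnj4, both higher in MI+Agrin.

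Kcnj8 had 795, 678, 692 and 676 normalized counts in MI+Agrin replicates 1, 3, 4 and 5, against 455 to 527 in MI+PBS and 849 to 916 in sham. The MI+Agrin libraries lay between the other groups without touching either, replicate 1 highest. The log2 fold change was 0.56 ± 0.07 against MI+PBS (adjusted p = 0.00165) and -0.33 ± 0.07 against sham (adjusted p = 0.0042). Pericyte markers summed to 12417 to 13366 in MI+Agrin, with 0 of 8 past the threshold against MI+PBS in limma, edgeR and DESeq2 and 1 lower at an unadjusted p under 0.05 in each.

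Kcnj2 had 1935, 2163, 1520 and 1996 normalized counts in MI+Agrin, against 836 to 1534 in MI+PBS and 1752 to 2083 in sham. The lowest MI+Agrin library, replicate 4, lay just under MI+PBS replicate 3, and the other 3 lay within or above the sham range. The log2 fold change was 0.85 ± 0.16 against MI+PBS (adjusted p = 0.0182) and -0.06 ± 0.16 against sham (adjusted p = 0.805). Without MI+PBS replicate 1 or 2 or MI+Agrin replicate 3 or 5 it no longer passed against MI+PBS (0.75 to 0.83, adjusted p = 0.0549 to 0.0667).

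Kcna5 (chromosome 6, 126532551 to 126535412) did not pass for MI+PBS against sham, unlike the other 4. It had 693, 680, 710 and 903 normalized counts in sham, 902, 729, 807 and 865 in MI+PBS and 366, 255, 502 and 358 in MI+Agrin. Every MI+Agrin library lay below every library of both other groups. The log2 fold change was -1.19 ± 0.16 against MI+PBS (adjusted p = 0.00318), -1.04 ± 0.16 against sham (adjusted p = 0.00097) and 0.15 ± 0.16 for MI+PBS against sham (adjusted p = 0.485).

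Kcne4 (chromosome 1, 78816758 to 78820028) had 190, 183, 152 and 191 normalized counts in sham, 329, 422, 481 and 372 in MI+PBS and 233, 195, 176 and 203 in MI+Agrin. The MI+PBS libraries stood above all others, and the MI+Agrin and sham ranges overlapped. The log2 fold change was -0.98 ± 0.13 against MI+PBS (adjusted p = 0.00216) and 0.17 ± 0.13 against sham (adjusted p = 0.335).

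Kcnk6 (chromosome 7, 29221926 to 29232515) had 274, 303, 260 and 280 normalized counts in sham, 520, 476, 479 and 518 in MI+PBS and 316, 328, 441 and 385 in MI+Agrin. The groups did not overlap, with MI+Agrin between the others. The log2 fold change was -0.45 ± 0.10 against MI+PBS (adjusted p = 0.044) and 0.38 ± 0.10 against sham (adjusted p = 0.013). This call was lost without MI+PBS replicate 1, 2, 3 or 5 or MI+Agrin replicate 1, 3 or 5 (-0.48 to -0.38, adjusted p = 0.0534 to 0.13). Macrophage markers were at overlapping sums in the infarcted groups, with 0 of 9 past the threshold in limma, edgeR and DESeq2 and 1, 0 and 2 lower at an unadjusted p under 0.05. All 9 had a log2 fold change below 0 in limma, at a median of -0.18, and their part in the Kcnk6 value was not tested.

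**Figure D4:**
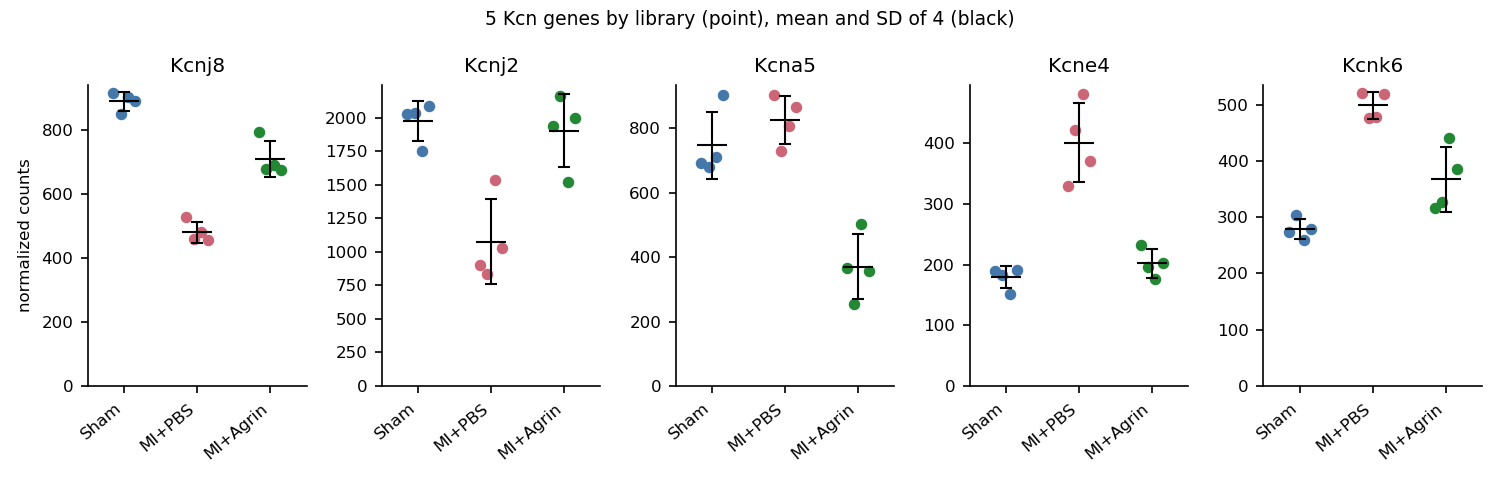
Normalized counts of the 5 Kcn genes past the threshold in MI+Agrin against MI+PBS; points are libraries, black marks the mean and SD of 4. Kcnj8 in MI+Agrin lies between 676 and 795, above 455 to 527 in MI+PBS, and Kcna5 lies at 255 to 502 against 729 to 902.

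The other members named for sham did not pass between the infarcted groups. Kcnd2 had 639, 813, 654 and 772 normalized counts in MI+Agrin and Kcnj3 976, 757, 753 and 658, and both overlapped MI+PBS, at 0.22 ± 0.11 (adjusted p = 0.296) and 0.13 ± 0.11 (adjusted p = 0.556). The 60 members that did not pass ran from -0.73 (Kcnj6, adjusted p = 0.309) to 0.99 (Kcna2, adjusted p = 0.101). Kcna2 had 165 to 210 normalized counts in MI+Agrin against 40.7 to 132 in MI+PBS, with no overlap, and Kcnj4, an inward rectifier, 46.6 to 63.0 against 14.6 to 37.5 (0.95 ± 0.32, adjusted p = 0.151).

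MI+Agrin against sham uses the same sham libraries as the first comparison and the same MI+Agrin libraries as the second, so that its values are set beside theirs and not counted as separate support. Of 65 members, 23 passed (35.4%), beside 28.6% of all genes. By direction, 5 were higher (7.69%) and 18 lower (27.7%), against 15.4% higher and 13.2% lower over all genes. The median log2 fold change was -0.11 over the members and near 0 over all genes. In 22 members (33.8%) the groups did not overlap, against 32.4% of all genes. Of the 15 members with a mean of at least 500, 11 were lower in limma (73.3%), against 17.9% of all genes at that level. In edgeR 7 were lower and in DESeq2 10, both run on 11 libraries without sham replicate 2. Over all 65 members, limma on the same 11 libraries called 15 lower, edgeR 13 and DESeq2 15.

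The transient outward pores Kcnd2 and Kcnd3 were below sham in the agrin group, with Kcnd2 at -0.57 ± 0.11 (adjusted p = 0.00241) and Kcnd3 at -0.59 ± 0.08 (adjusted p = 0.00038), as did Kcnj3 at -0.72 ± 0.11 (adjusted p = 0.000849) and Kcnj11 at -0.51 ± 0.13 (adjusted p = 0.0114). Kcng4 (-1.62 ± 0.29, adjusted p = 0.00198), Kcnk1 (-1.23 ± 0.32, adjusted p = 0.0127), Kcnn2 (-0.89 ± 0.22, adjusted p = 0.0104), Kcna7 (-0.83 ± 0.14, adjusted p = 0.00122) and Kcnn1 (-0.32 ± 0.10, adjusted p = 0.0377) were lower too. Kcnk2 (-0.92 ± 0.23, adjusted p = 0.0103) and Kcna4, a slowly recovering transient outward pore (-0.78 ± 0.23, adjusted p = 0.0223), passed here but not in MI+PBS against sham, where they stood at -0.48 and -0.42, and neither differed past the threshold between the infarcted groups (adjusted p = 0.312 and 0.401). Exons of Kcnk2 share 12.2% of their bases with another gene. Of 12 cardiomyocyte markers, 5 were lower in limma in this comparison (Tnni3, Tnnc1, Mybpc3, Myl2 and Myl3), 5 in edgeR and 6 in DESeq2. In all 3 tools 0 were higher, also at an unadjusted p under 0.05. Of the 12, 10 had a log2 fold change below 0 and 2 above it, at a median of -0.29. In 1 marker every MI+Agrin library lay above every sham library, and in 7 every one lay below. The list summed to 1612020 to 1816320 in MI+Agrin against 1879170 to 2202380 in sham, and its part in the channel values was not tested.

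Kcnj5 (-0.49 ± 0.16, adjusted p = 0.036), Kcnip2 (-0.47 ± 0.16, adjusted p = 0.0493), Kcnh2 (-0.39 ± 0.13, adjusted p = 0.0475) and Kcnq1 (-0.30 ± 0.09, adjusted p = 0.0216) passed by less. Kcnip2 and Kcnh2 were lost without most single libraries, namely any sham replicate for Kcnip2, sham replicate 3, 4 or 5 for Kcnh2, and MI+Agrin replicate 3, 4 or 5 for both (adjusted p = 0.0556 to 0.138). Kcnj5 was lost without any sham replicate or MI+Agrin replicate 3 or 5 (adjusted p = 0.0543 to 0.0998), Kcnn1 without sham replicate 2 or 4 or any MI+Agrin replicate (adjusted p = 0.0509 to 0.106) and Kcnq1 without sham replicate 5 or MI+Agrin replicate 1 or 4 (adjusted p = 0.0544 to 0.0658). Kcna4 was lost without sham replicate 3, 4 or 5 or MI+Agrin replicate 3 or 5 (adjusted p = 0.0508 to 0.0685).

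The 5 members above sham were Kcna3 (1.21 ± 0.42, adjusted p = 0.0461), Kcnk13 (1.20 ± 0.24, adjusted p = 0.00361), Kcnab2 (1.15 ± 0.19, adjusted p = 0.00113), Kcnd1 (1.02 ± 0.17, adjusted p = 0.00145) and Kcnk6. All 9 macrophage markers were higher than in sham here as well. Kcna3 was lost without any sham replicate or MI+Agrin replicate 3, 4 or 5 (adjusted p = 0.0506 to 0.12). The 42 members that did not pass ran from -1.37 (Kcnh7, adjusted p = 0.177) to 0.74 (Kcnn4, adjusted p = 0.0898).

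Ratios of related pores, which do not depend on the scaling of a library, were compared for 3 pairs that stand in for each other between regions or cell types of the heart. The log2 ratio of Kcnj8 to Kcnj11 was -2.42 ± 0.13 in sham, -2.63 ± 0.30 in MI+PBS and -2.23 ± 0.19 in MI+Agrin (SD, n = 4). Each MI+Agrin library lay above each MI+PBS library, a difference of 0.40 with the smallest two-sided exact permutation p that 70 assignments allow, 0.0286, and 0.114 after Benjamini-Hochberg adjustment over the 6 ratio tests. For MI+PBS against sham the difference was -0.21 (exact permutation p = 0.257).

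The log2 ratio of Kcnd2 to Kcnd3 was 0.64 ± 0.13 in sham, 0.36 ± 0.17 in MI+PBS and 0.66 ± 0.12 in MI+Agrin, with differences of -0.28 and 0.30 (exact permutation p = 0.0571 for each, adjusted 0.114). The log2 ratio of Kcnj2 to Kcnj12 was 0.87 ± 0.25 in sham, 0.27 ± 0.50 in MI+PBS and 0.70 ± 0.45 in MI+Agrin, with differences of -0.60 (exact permutation p = 0.0857, adjusted 0.129) and 0.43 (exact permutation p = 0.2, adjusted 0.24). After adjustment 0 of 6 ratio tests passed 0.05, and 1 of 6 did before it. No ratio could pass the adjustment unless most of the 6 reached the smallest possible p of 0.0286. The count of 0 therefore says little about any single ratio.

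**Figure D5:**
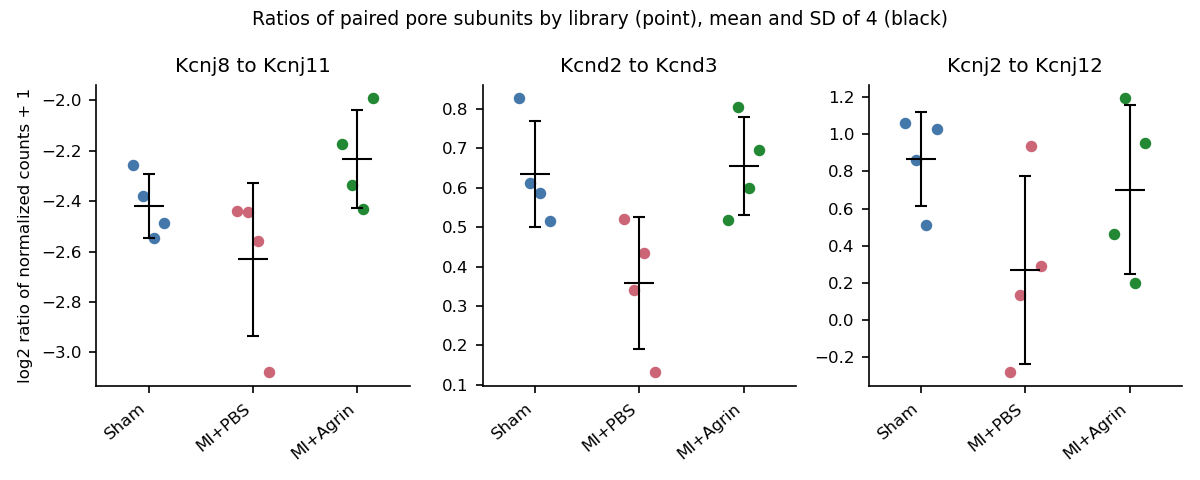
Log2 ratio of normalized counts plus 1 for Kcnj8 to Kcnj11, Kcnd2 to Kcnd3 and Kcnj2 to Kcnj12; points are libraries, black marks the mean and SD of 4, and vertical axes do not start at 0. The MI+PBS means, -2.63, 0.36 and 0.27, are the lowest of the 3 groups in each panel, with wide overlap for Kcnj2 to Kcnj12.

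Other genes of the pathway were counted in the same fit for MI+PBS against sham, where 21.8% of all genes were lower and 22.6% higher. Of 8 auxiliary subunits and partners without a Kcn symbol, 5 were lower (62.5%) and 0 higher in limma, edgeR and DESeq2, with 1 higher at an unadjusted p under 0.05 in edgeR and 0 in the other tools. They were Abcc9, the sulfonylurea receptor of the cardiac and vascular ATP-sensitive channels (-0.85 ± 0.16, adjusted p = 0.000846), Abcc8, the other such receptor (-0.43 ± 0.10, adjusted p = 0.00408), Amigo1, a partner of Kcnb pores (-0.51 ± 0.09, adjusted p = 0.000535), Akap9, the anchor of the slow delayed rectifier (-0.34 ± 0.08, adjusted p = 0.00288), and Lrrc55, a subunit of the large-conductance channel (-1.28 ± 0.27, adjusted p = 0.00222). Of these, Abcc9 stood at -0.65 ± 0.16 (adjusted p = 0.00865) in MI+Agrin against sham and at 0.20 ± 0.16 (adjusted p = 0.5) against MI+PBS.

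Of 19 genes that traffic, anchor or degrade cardiac potassium channels, 3 were higher (15.8%) and 7 lower (36.8%), led by Akap5, an anchor of protein kinase A (-1.89 ± 0.19, adjusted p = 3.03e-05), the ankyrins Ank3 (-0.57 ± 0.08) and Ank2 (-0.45 ± 0.07), and the actin-binding cortactin gene Cttn (0.50 ± 0.08). Of 15 transcription factors of the ventricular channel pattern, 8 were lower in limma (53.3%), 7 in edgeR and 8 in DESeq2, and 0 were higher in all 3 tools, also at an unadjusted p under 0.05. Among them were Hopx (-1.28 ± 0.24, adjusted p = 0.001), a regulator of cardiac growth whose exons share 27.2% of their bases with the antisense gene Hopxos, Irx4 (-0.71 ± 0.14, adjusted p = 0.00138), a ventricular Iroquois factor, Mef2c (-0.41 ± 0.07) and Gata4 (-0.26 ± 0.07), while Irx3 and Irx5, which set the gradient of the transient outward current across the ventricular wall, were not among the 8.

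Of 15 genes of the muscarinic and adenosine control of the Kcnj3 and Kcnj5 channel, 4 were lower and 6 higher, 66.7% in all beside 44.4% of all genes. The muscarinic receptor gene Chrm2 was lower, at -0.57 ± 0.06 (adjusted p = 4.14e-05), and the inhibitory G protein genes Gnai3 (0.59 ± 0.07) and Gnai2 (0.38 ± 0.06) and the regulator Rgs10 (0.61 ± 0.12) rose. Of 14 pump and cotransporter genes, 4 rose (28.6%), led by Fxyd5 (1.37 ± 0.14, adjusted p = 3.18e-05), a modulator of the sodium pump, and 4 fell (28.6%), led by the pump subunit gene Atp1b2 (-0.58 ± 0.10). Of 17 sodium, calcium and pacemaker channel genes, 1 was higher (5.88%) and 6 were lower (35.3%), 41.2% in all beside 44.4% of all genes, led by Scn4a (-1.16 ± 0.19), Hcn2 (-0.94 ± 0.17) and Cacna1g (-0.46 ± 0.11).

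Between the infarcted groups, 3 genes of these lists passed, chosen for naming after their values were seen. They were 1 of 19 trafficking genes (5.26%), 1 of 15 transcription factors (6.67%) and 1 of 15 genes of muscarinic and adenosine control (6.67%). In the other lists 0 passed, and 1.64% of all genes did. Each of these shares rests on 1 gene. Sgk1, a kinase that raises channels at the membrane, was lower with agrin (-0.67 ± 0.14, adjusted p = 0.0286), from 2097 ± 437 to 1310 ± 206 normalized counts, and its list's count fell to 0 without MI+PBS replicate 1 or 3 or MI+Agrin replicate 3 or 4. Hey2, a transcriptional repressor found in the compact ventricular wall, was higher (0.47 ± 0.11, adjusted p = 0.0483), as was Rgs4, which shortens signalling to the Kcnj3 and Kcnj5 channel (0.52 ± 0.12, adjusted p = 0.0468). edgeR called neither Hey2 nor Rgs4. Of the 15 transcription factors, 13 had a log2 fold change above 0 and 2 below it in limma. At an unadjusted p under 0.05, 9 were higher in limma, 8 in edgeR and 9 in DESeq2. DESeq2 called 3 of the 15 higher after adjustment. The count of the list of Hey2 fell to 0 without MI+PBS replicate 1 or 2 or any MI+Agrin replicate, and that of Rgs4 without MI+PBS replicate 1, 2 or 5 or any MI+Agrin replicate.

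The 11 Kcn genes under the mean of 5 were not tested. They were Kcne2, Kcnb2, Kcnh8, Kcng1, Kcns1, Kcnj13, Kcnu1, Kcnmb4, Kcnq3, Kcnk4 and Kcnh6, with means of at most 3.12 normalized counts and no library above 8.09. Just inside the filter stood Kcnh7 at a mean of 5.15 and Kcnip1 at 5.58, and just outside it Kcnh6 at 3.12 and Kcnk4 at 2.60.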

How the data were processed

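Poly-A RNA of 12 hearts, 1 library per animal and 4 animals per group by the series' design text, was sequenced, so that the spread behind each p-value is one between animals. The deposited table holds a signal for every gene in each library, which its header calls normalized counts (per the file headers). Per the submitters' processing notes, the tools were DESeq2 1.10.1, HTSeq, STAR 2.4.2a and cutadapt, and the build mm10. For their roles, the annotation and the strand setting, the sources used here give nothing. In 11 libraries 99.95% to 100% of values were whole multiples of 1 step (within 0.0055 normalized counts), which gave whole reads. Sham replicate 2, with a step close to 1, was left out of this.

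Genes averaging 5 normalized counts or more were tested on log2(value + 1), a scale that understates the change of low genes. All 12 libraries entered 1 limma model (3.58.1, under R 4.3.3) with a trend over intensity, with Benjamini-Hochberg adjustment over all 14906 genes at 0.05. As the values were not raw, the planned test for normalized values was used in place of that for counts. Ratios were compared by exact permutation, two-sided, over 70 assignments. Values in every library were given for Kcnj8, Kcnj2, Kcne4, Kcnd2, Kcnj3 and each member past the threshold between the infarcted groups. Other members past a threshold were named with fold change and adjusted p, members that did not pass by level or range, and up to 4 genes with the smallest p per list. The members and lists were chosen with earlier results of these data known. Counting error is small at these depths for all but the lowest members.

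Alternatives were other pseudocounts (0.5 and 8), no filter or a mean of 50, TMM rescaling, no trend, quality weights, only the libraries compared, the replicate number as a block, recovered reads in DESeq2 1.42.0 and edgeR 4.0.16, and leaving out libraries. The same 6 libraries without the block and limma on the same 11 libraries were added after seeing the data. All 76 Kcn symbols matched GENCODE M21 (mm10), from which union exon lengths were taken. Exons of Kcna6 (39.6%), Kcnj3 (31.1%) and Kcnk2 (12.2%) share bases with a gene on the opposite strand, so these values are uncertain. The same holds for the markers Tagln (67.9%), Pln (64.7%) and Nppa (61.5%), which enter the smooth muscle, cardiomyocyte and atrial sums. Python 3.11.15 with matplotlib 3.10.9 drew the figures. Some genes count in the totals but are not reported by name or drawn here.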

Additional observations from a re-analysis of the deposited data

Results flagged for a closer look

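In 13 of 195 groups of 4 libraries examined (65 members in 3 groups), the highest or lowest library was separated from the nearest by more than Dixon's 95% critical value, where chance flags about 1 in 20 groups. MI+Agrin replicate 1 accounted for 5 of them, being the highest of its group for Kcnj8 at 794.54 normalized counts, Kcnh2 at 3043.37, Kcnip2 at 6016.81, Kcna2 at 209.78 and Kcnq5 at 45.6. The other MI+Agrin cases were Kcnip1 in replicate 3 at 9.87, above the rest, and Kcnn1 in replicate 5 at 308.49, below the rest. MI+PBS replicate 2 was highest for Kcnf1 at 40.74 and for Kcng4 at 13.58. Among sham libraries, replicate 3 was high for Kcnj4 at 73.46 and low for Kcnk2 at 95.82, replicate 4 was low for Kcnj2 at 1751.96 and replicate 5 was high for Kcna5 at 903.32. Kcnj8 stood above MI+PBS in all 4 MI+Agrin libraries, also apart from replicate 1.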

How the results depend on the processing

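The count of members past the threshold kept within 1.5 times its value in every alternative for MI+PBS against sham and MI+Agrin against sham, with ranges of 25 to 31 and 17 to 24 when 1 library was left out. For MI+Agrin against MI+PBS the count was 5, and 3 to 5 when 1 library was left out, with 3 without MI+PBS replicate 1 or 2 or MI+Agrin replicate 3 or 5. It was 3 with only the 8 libraries of both groups and 3 with MI+PBS replicate 2 and MI+Agrin replicate 1 both left out, an alternative in which Kcnj8, Kcna5 and Kcne4 passed. edgeR called 4 and DESeq2 6. Kcnk6 missed the threshold in 15 of 22 alternatives and Kcnj2 in 8. With all libraries, Kcnj12 stood at 0.10 and Kcnj2 at -0.06 against sham in MI+Agrin, and the direction turned for Kcnj12 (-0.04 with the replicate block and -0.04 in the same 6 libraries without it) and for Kcnj2 (0.04 without MI+Agrin replicate 4, within -0.128 to 0.0419 as single libraries were left out), none past the threshold. The cause was not tested.

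Same-numbered libraries did not deviate together (correlations of -0.285 to 0.121 over 9 pairs), beside -0.223 to 0.302 for libraries of different numbers. The values gave no sign that the numbers pair the animals, but so few pairs cannot exclude it. With the replicate block, which keeps 6 libraries per comparison, the counts were 23, 0 and 18 for MI+PBS against sham, MI+Agrin against MI+PBS and MI+Agrin against sham, and in the same 6 libraries without the block 24, 1 and 23. Over all genes the block called 0 between the infarcted groups. The ratios kept their direction in every alternative run. With 1 library left out no ratio test had an adjusted p under 0.05, a threshold that a single ratio could not reach with so few assignments. The lowest members, under about 50 counts, have wide errors, and 26 of 65 members lie there.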

Other observations

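Markers of the remaining cell types of the heart were counted in the same limma fit. For MI+PBS against sham, 3 of 8 fibroblast markers were higher and 1 lower. Of 8 smooth muscle markers, 4 were higher, and the other 4 had a log2 fold change below 0 without passing. Of 9 endothelial markers, 1 was higher and 2 lower. Of those tested, 2 of 6 conduction system and 1 of 8 neuron and Schwann cell markers were lower. Among 5 skeletal muscle markers tested, 1 was higher. Over all genes 44.4% passed. The share of the fibroblast and smooth muscle lists, 4 of 8 each, was near that, and the other lists lay under it. For MI+Agrin against MI+PBS, the endothelial markers Kdr, a receptor of vascular growth factor (0.56 ± 0.09, adjusted p = 0.00756), and Esam, an adhesion molecule (-0.32 ± 0.05, adjusted p = 0.00855), passed in opposite directions. Of the fibroblast, smooth muscle, conduction system, neuron and Schwann cell and skeletal muscle markers, 0 passed between the infarcted groups in limma or edgeR, and DESeq2 called 1 smooth muscle marker lower. At an unadjusted p under 0.05 in limma, 1 fibroblast and 1 conduction system marker were higher and 2 smooth muscle markers lower. Their part in the channel values was not tested.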
